A study of Mus musculus with 9 samples.

Results

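Cell cycle and DNA replication genes were followed in messenger RNA from mouse tibia. The genes were chosen by name: 40 symbols, all found among the 22183 genes of the deposited expression table. They comprised 14 genes of DNA replication, 21 genes of mitosis and 5 genes that regulate the passage between phases. The table held 3 groups of 3 libraries. Naive tibiae had received no treatment. The Ti group had received titanium particles, which stand for the wear debris that loosens joint implants. The Ti+I-OG group was given the particles together with I-OG, a hydrogel made for injection that carries irisin, a peptide linked to muscle, and the series gives its treatment time as 5 weeks. Strain, age, sex and particle dose were not given in the sources used here. No label states whether each library is a different mouse, and the spread that the p-values rest on may therefore be partly technical. The labels give the tissue as tibia, and in bulk RNA fewer cells of a type and less RNA per cell cannot be told apart.

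A cell that divides first copies its DNA in S phase and then separates the copies in mitosis. In late G1 the E2F factors, with cyclin E as a partner of the kinase Cdk2, switch on the genes of replication: Cdt1 and Cdc6 load the Mcm2-7 helicase on origins, the GINS complex activates it, Pcna clamps the polymerases to the template, and ribonucleotide reductase and thymidylate synthase supply nucleotides. In G2 a later wave, driven by Foxm1 and Mybl2, brings the kinases, motors and kinetochore proteins of mitosis. In adult tibia the bone marrow, where precursors of red cells, granulocytes and B cells divide, is the main site of such expression.

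The 2 waves are known to be read from different promoter elements, so promoters are shown first. Mitosis genes typically carry the cell cycle homology region (CHR), searched with the core TTTGAA and with its variant form, which reads TTTAAA instead, and the CCAAT box, for which those 5 letters were searched. Replication genes typically carry E2F sites, for which the letters TTCCCGC were searched together with the related site that reads TTGGCGC in its place and another that reads TTCGCGC in the same place. Each motif was searched on both strands in the 250 bases before the transcription start, in 32 RefSeq windows (GRCm38.p6) that covered 31 of the 40 members. The following 6 stretches stand for the contrast between the lists. They lie within the last 180 bases before the start, hold no annotated exon, and show the motif matches in capitals, 5′ to 3′ along the gene. Those of Mki67, the proliferation antigen Ki-67 (chr7:135716380-135716559 on the minus strand), Top2a, the topoisomerase that untangles sister chromatids (chr11:99024190-99024369 on the minus strand), and Cdc20, an activator of the anaphase-promoting complex (chr4:118437353-118437523 on the minus strand), belong to mitosis.
Mki67: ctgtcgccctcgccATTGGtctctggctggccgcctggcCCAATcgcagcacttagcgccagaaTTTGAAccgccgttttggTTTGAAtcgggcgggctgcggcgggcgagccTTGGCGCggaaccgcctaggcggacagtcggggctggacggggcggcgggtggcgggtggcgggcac
Top2a: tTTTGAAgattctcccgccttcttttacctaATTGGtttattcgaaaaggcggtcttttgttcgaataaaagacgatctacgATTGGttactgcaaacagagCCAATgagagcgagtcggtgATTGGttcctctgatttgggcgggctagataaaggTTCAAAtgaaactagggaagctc
Cdc20: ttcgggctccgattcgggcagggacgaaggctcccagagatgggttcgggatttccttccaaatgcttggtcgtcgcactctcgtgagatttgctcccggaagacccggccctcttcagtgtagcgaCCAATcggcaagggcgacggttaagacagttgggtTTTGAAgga
Those of Mcm5 (chr8:75109329-75109508 on the plus strand) and Mcm6 (chr1:128359706-128359885 on the minus strand), subunits of the replicative helicase, and of Rrm1, the large subunit of ribonucleotide reductase (chr7:102441515-102441694 on the plus strand), belong to replication.
Mcm5: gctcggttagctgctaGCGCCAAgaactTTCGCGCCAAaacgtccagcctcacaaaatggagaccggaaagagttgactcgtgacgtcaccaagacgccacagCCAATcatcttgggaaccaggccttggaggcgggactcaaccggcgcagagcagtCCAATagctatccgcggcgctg
Mcm6: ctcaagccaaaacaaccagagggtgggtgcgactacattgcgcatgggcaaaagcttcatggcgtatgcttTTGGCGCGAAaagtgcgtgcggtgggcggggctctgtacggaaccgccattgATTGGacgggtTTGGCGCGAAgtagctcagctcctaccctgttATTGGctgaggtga
Rrm1: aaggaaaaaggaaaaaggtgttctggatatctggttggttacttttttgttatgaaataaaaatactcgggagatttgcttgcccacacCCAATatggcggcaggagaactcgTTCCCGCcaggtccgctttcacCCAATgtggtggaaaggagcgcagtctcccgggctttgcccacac

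The CHR was found in 12 of 17 mitosis windows (70.6%) and in 2 of 12 replication windows (16.7%, from 11 genes), against 25.2% of 32851 promoter windows of the same length. An E2F match was found in 3 mitosis windows (17.6%) and 6 replication windows (50.0%), against 6.69% of all windows. CCAAT boxes stood in 16 mitosis windows (94.1%) and 9 replication windows (75.0%), against 33.8%. Among 15 E2F matches in members' windows, 1 overlapped a CCAAT match. A match is a run of letters and not a shown binding site. In the sequences above, Top2a and Cdc20 showed CHR and CCAAT letters without an E2F match, Mcm5, Mcm6 and Rrm1 showed E2F and CCAAT letters, and Mki67 showed all 3 kinds. Mcm5 also has a CHR match at position -221 from the start, upstream of the printed stretch, and is 1 of the 2 replication windows counted with a CHR.

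The libraries held 16256081 to 24766502 estimated counts. All 40 members were among the 14211 genes with enough counts to test, and the lowest count of any member in any library was 447, of Gins1. The members together took 0.761% ± 0.0613 of the counts in naive tibia, 0.634% ± 0.108 after titanium and 0.655% ± 0.0612 after titanium with hydrogel (SD, n = 3 libraries each). Globin transcripts took 6.15% ± 3.26, 8.04% ± 1.72 and 15.6% ± 0.470 in the same groups. The exons of 10 members overlap another annotated gene and the protocol names no strand-marking step, so reads of the partners cannot be told apart: this holds for Mcm7, Gins2, Top2a, Ccna2, Plk1, Kif20a, Cdc20, Ube2c, Ccne2 and Foxm1. The partner of Ube2c is Tnnc2, troponin C of fast muscle. Pcna, Tyms, Ccnb1 and Ccnb2 have named pseudogenes elsewhere in the genome that could share their reads. Per transcript length, in FPKM (fragments per kilobase of transcript, scaled to depth), the most abundant member was Pcna at 274 ± 46.0 in naive tibia (SD, n = 3), followed by Ube2c at 230 ± 11.5. At the other end stood the long kinetochore genes Cenpe at 12.3 ± 3.25 FPKM and Cenpf at 9.93 ± 1.40 FPKM.

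**Figure D1:**
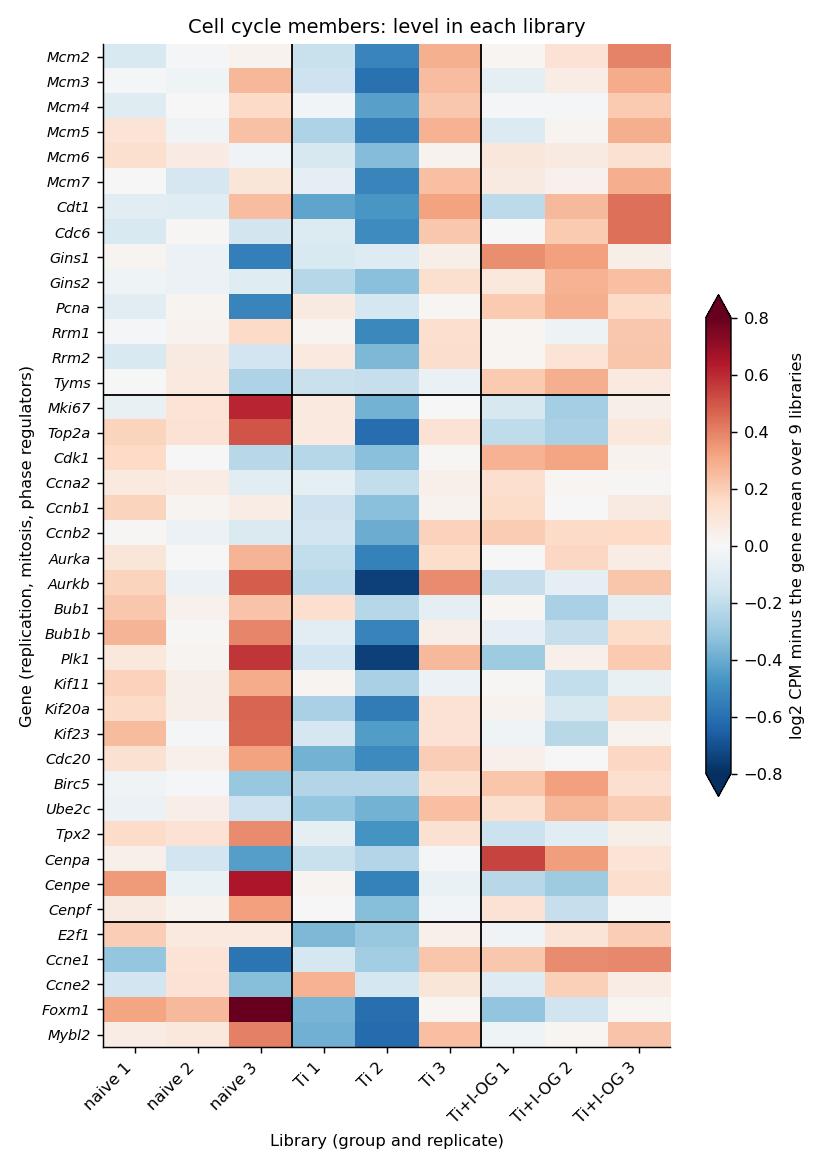
Level of the 40 members (rows) in the 9 libraries (columns), as log2 CPM (counts scaled to equal depth) minus the gene's mean over the libraries, red above and blue below the mean; horizontal lines part replication, mitosis and phase regulator genes. Ti replicate 2 was lowest for 31 of the 40 genes, and naive replicate 3 was highest for 16, 14 of them mitosis genes.

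The libraries of a group were widely spread for these genes. Ti replicate 2 was the lowest of all 9 libraries for 31 of 40 members, while it was lowest for 16.3% of all genes tested. That held for 11 of 14 replication, 18 of 21 mitosis and 2 of 5 regulator genes. Naive replicate 3 was the highest library for 16 members, and 14 of these were mitosis genes. The same library was lowest for 7 members, 3 of them replication genes. Over all genes tested it was highest for 26.9% and lowest for 24.1%, so its extreme values were not limited to the members. Ti+I-OG replicate 3 was highest for 9 members, 8 of them replication genes, and for 8.79% of all genes. In the comparisons with Ti, the members' counts by sign and by p and their medians are given below also without Ti replicate 2. Overlap of libraries is given with all libraries only.

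After titanium particles 1 of the 40 members passed the test: Foxm1, the forkhead factor that drives transcription of mitosis genes, was lower. The test was edgeR's quasi-likelihood test with Benjamini-Hochberg adjustment over all 14211 genes at 0.05. It called 339 genes (2.39%) lower and 575 (4.05%) higher in this comparison, 6.43% in all, so 1 of 40 members lower is near the background. The other 39 members did not pass, with adjusted p of 0.135 or more in edgeR. Their fold changes nevertheless leaned one way: 33 of 40 members had a negative log2 fold change, against 49.3% of all genes. The median log2 fold change was -0.30 over the mitosis genes and -0.08 over the replication genes, against 0.01 over all genes tested. At an unadjusted p under 0.05, 6 members were lower and 0 higher, where all genes gave 12.4% and 14.4%. The Ti and naive libraries did not overlap for 5 members, all lower in Ti (Top2a, Kif11, Cenpf, E2f1 and Foxm1), against 12.9% of all genes lower without overlap. Without Ti replicate 2 the lean was smaller: 25 members were negative and 15 positive, the medians were -0.17 for mitosis and 0.04 for replication, and 0 members passed, in a fit that called 105 genes of all. Only 1 member had an unadjusted p under 0.05 in that fit. The share of all genes at that p is not given for it, so this count is not read as a result about the members. Without Ti replicate 3, 5 members passed, all lower in Ti (Kif20a, Cdc20, E2f1, Foxm1 and Mybl2), in a fit that called 5.72% of all genes lower.

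Between Ti+I-OG and Ti, 0 of the 40 members passed edgeR's test, in a comparison where 6 genes of all (0.0422%) were called higher and 0 lower. At an unadjusted p under 0.05, 5 members were higher (Gins2, Tyms, Cdk1, Birc5 and Cenpa) and 0 lower, against 4.19% and 3.65% of all genes, and DESeq2 called 0 members as well. The fold changes leaned upward: 36 of 40 members were positive, including all 14 replication genes, against 49.6% of all genes. The median was 0.24 for replication and 0.14 for mitosis genes. The libraries did not overlap for 7 members, all higher with the hydrogel (Mcm6, Gins1, Pcna, Tyms, Cdk1, Birc5 and Cenpa), against 7.75% of all genes higher and 6.71% lower without overlap. This comparison shares the Ti libraries with the one before, so a low Ti library enters both with opposite sign. Without Ti replicate 2, 26 members were positive, and the medians were 0.13 and -0.01. In that fit, which called 5 genes of all, 0 members passed and only 1 had an unadjusted p under 0.05. Here too no share of all genes at that p is given, so the count is not read as a result about the members.

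Between Ti+I-OG and naive tibia, a comparison that does not use the Ti libraries for its means, replication and mitosis genes lay on opposite sides of 0. The median log2 fold change was 0.17 over the 14 replication genes, of which 13 were positive, and -0.22 over the 21 mitosis genes, of which 6 were positive; over all genes tested it was 0.03. The sizes depended on single libraries: the replication median was 0.07 without Ti+I-OG replicate 3, and the mitosis median was -0.09 without naive replicate 3 and -0.14 without Ti+I-OG replicate 1. No single member passed edgeR's test, where 545 genes (3.84%) were called higher and 629 (4.43%) lower, 8.26% in all. The nearest were Foxm1 (log2 fold change -0.65, adjusted p = 0.0604 in edgeR), Cenpa (0.51, adjusted p = 0.0620) and Ccne1 (0.56, adjusted p = 0.0728). At an unadjusted p under 0.05, 5 members were higher (Gins1, Pcna, Birc5, Cenpa and Ccne1) and 2 lower (Cenpe and Foxm1), against 15.6% and 14.2% of all genes. Libraries did not overlap for 8 members higher in Ti+I-OG (Gins1, Gins2, Pcna, Ccnb2, Birc5, Ube2c, Cenpa and Ccne1) and 5 lower (Top2a, Bub1, Kif11, Tpx2 and Foxm1), against 18.7% and 16.9% of all genes. With the replicate number as a block, edgeR called 2 members higher (Cenpa and Ccne1) and 3 lower (Kif23, Cenpe and Foxm1). That fit called 12.1% of all genes higher and 12.2% lower, and both shares among the members lie below these. DESeq2 called Cenpa and Ccne1 higher and Foxm1 lower, where it called 7.76% of all genes higher and 8.98% lower. Without naive replicate 2 edgeR called Ccne1 higher and Foxm1 lower, against 7.07% and 7.66% of all genes. It called Foxm1 lower without Ti replicate 2 or 3, where 4.82% and 5.1% of all genes were lower. None of these counts of members exceeds the share of all genes called by the same fit.

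**Figure D2:**
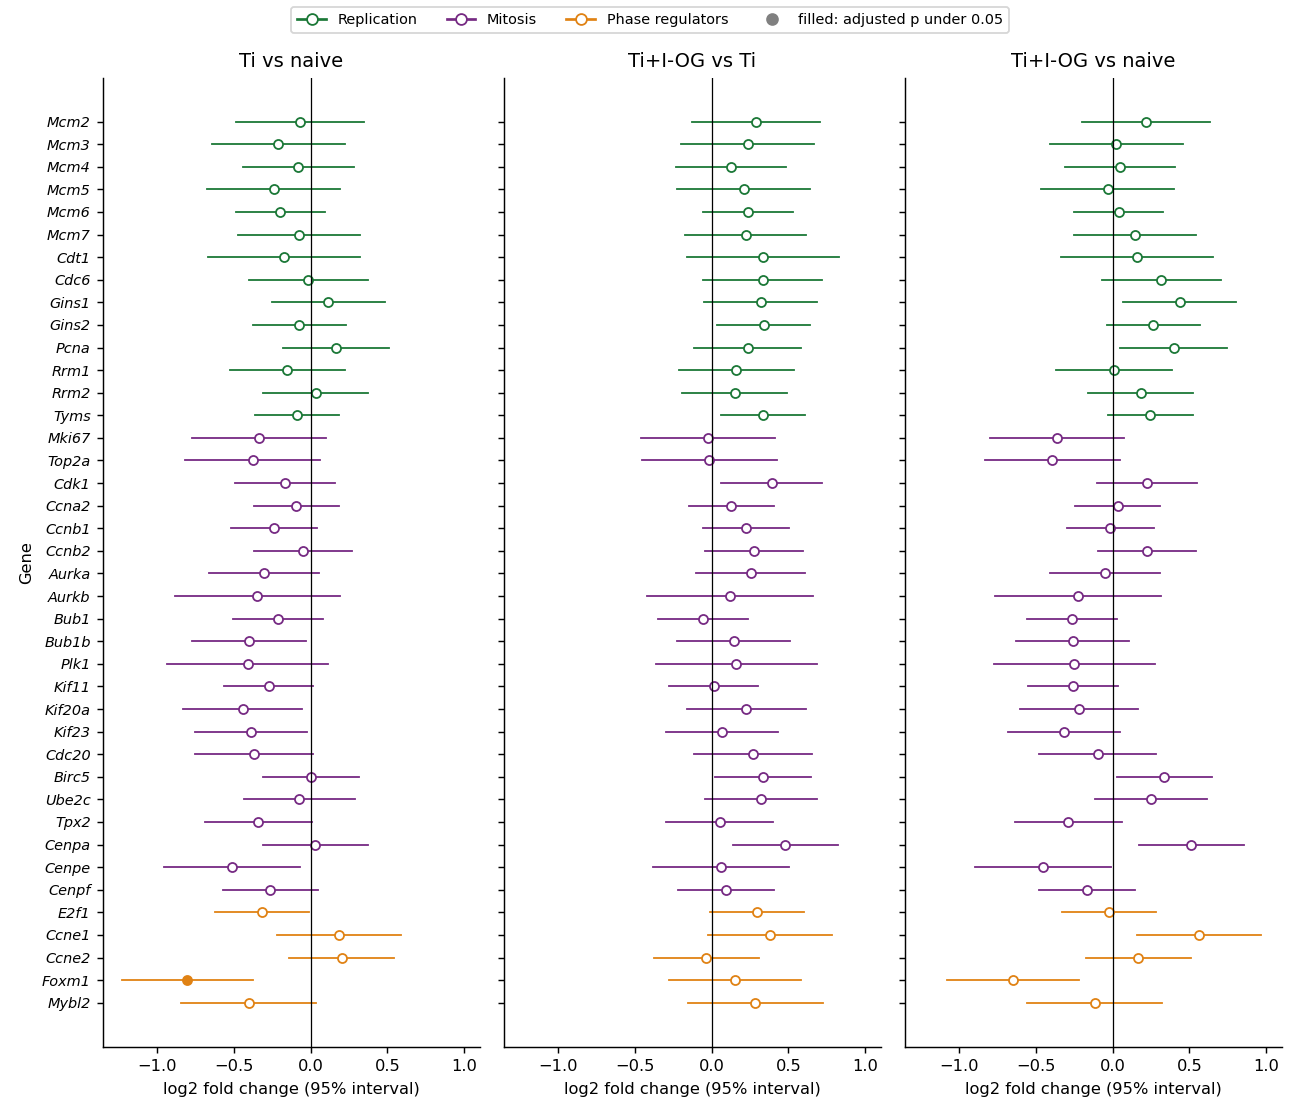
Log2 fold change (points) with its 95% interval (lines) for each of the 40 members in the 3 comparisons, from edgeR; green is replication, purple mitosis, orange phase regulators, and a filled point has an adjusted p under 0.05. Foxm1 in Ti against naive, at -0.80, is the only filled point, and in the right panel most replication genes lie right of 0 and most mitosis genes left of it.

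Among the phase regulators Foxm1 had the largest change in Ti. Its normalised levels were 61.4, 58.9 and 88.4 CPM in the naive libraries, 37.9, 32.1 and 49.7 in Ti, and 39.4, 44.0 and 49.8 in Ti+I-OG. Every treated library lay below every naive one, and the 2 treated groups overlapped. Foxm1 fell in Ti to 0.573 of the naive level (log2 fold change -0.80, 95% interval -1.23 to -0.37, edgeR adjusted p = 0.0361, n = 3 against 3). The call was not firm: fitted on the naive and Ti libraries alone the adjusted p was 0.0705 in edgeR. It was 0.115 without naive replicate 3 (log2 fold change -0.61), 0.0553 without naive replicate 1, 0.125 without Ti replicate 1 and 0.147 without Ti replicate 2. Leaving out Ti+I-OG replicate 1 or 2, which are not in this comparison, gave 0.0505 and 0.0539. In those fits the filter, the scaling and the shared estimate of spread were made anew, and the log2 fold change was -0.81. The direction was kept in all of these fits. A joint test over the 3 groups gave an adjusted p of 0.0509 for Foxm1, and 0 members passed it, against 5.77% of all genes (28.2% of all genes had an unadjusted p under 0.05).

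Mybl2, which works with the MuvB complex on mitosis genes, stood at 66.9, 68.3 and 85.2 CPM in naive, 49.1, 41.8 and 75.9 in Ti, and 62.8, 65.0 and 75.3 in Ti+I-OG. The groups overlapped, and the log2 fold change in Ti of -0.40 did not pass (edgeR adjusted p = 0.221). E2f1, the activator of the replication wave, stood at 39.9, 36.6 and 36.6 CPM in naive, 26.9, 28.1 and 35.7 in Ti and 34.1, 37.4 and 39.8 in Ti+I-OG. Its Ti libraries all lay below the naive ones, with a log2 fold change of -0.32 (edgeR adjusted p = 0.167). Ccne1, cyclin E1, which drives entry into S phase, stood at 43.3, 58.0 and 35.6 CPM in naive, 48.5, 44.2 and 62.6 in Ti and 62.5, 69.9 and 70.1 in Ti+I-OG. Its Ti+I-OG libraries all lay above the naive ones, and 1 Ti library reached their range. Ccne2, cyclin E2, had log2 fold changes of 0.20, -0.04 and 0.17 in the 3 comparisons, none past the test.

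**Figure D3:**
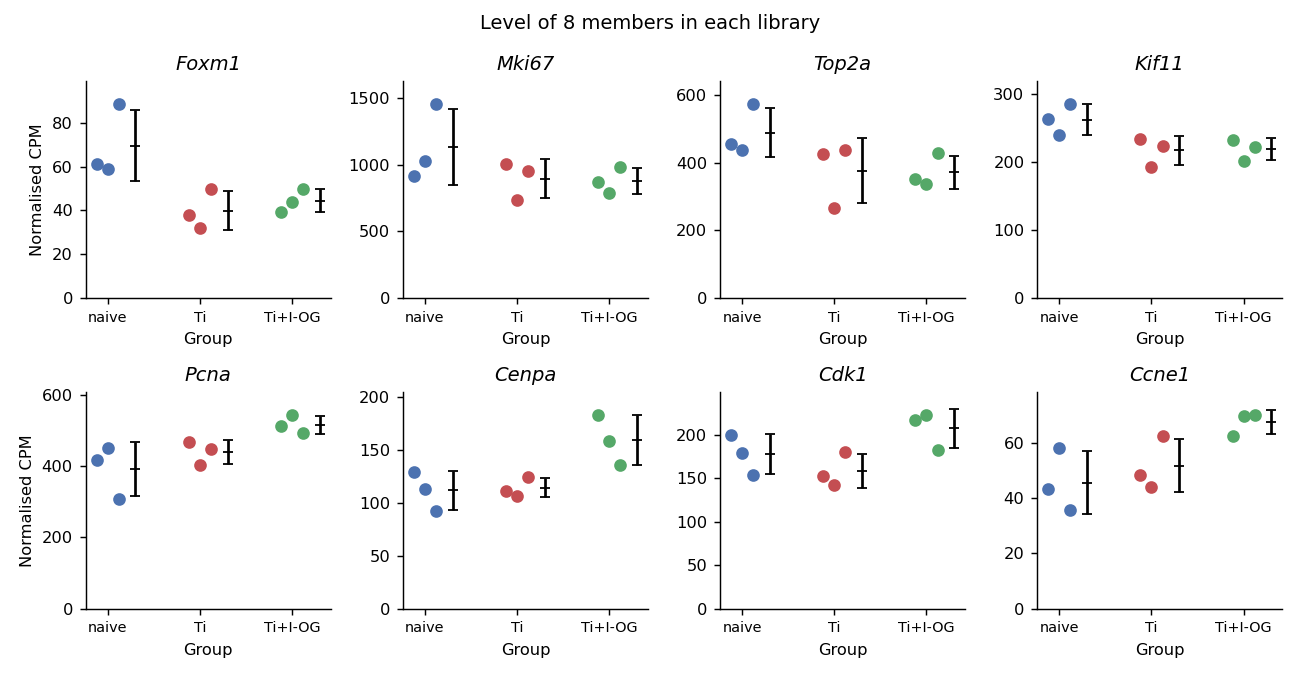
Normalised level (CPM, axis from 0) of 8 members in each library; coloured points are libraries of a group, and the bar beside them is the mean with its SD (n = 3). Foxm1 lies lower in both treated groups, Top2a and Kif11 lean the same way, and Pcna, Cenpa and Ccne1 are highest in Ti+I-OG.

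The helicase subunits and their loaders differed little between groups. Mcm2 had 173, 186 and 192 CPM in naive, 166, 130 and 230 in Ti and 190, 204 and 247 in Ti+I-OG. The Ti libraries held both the lowest and the second highest value of the 9. Log2 fold changes of Mcm2 were -0.07, 0.29 and 0.22 in Ti against naive, Ti+I-OG against Ti and Ti+I-OG against naive, with 95% intervals of -0.48 to 0.35, -0.13 to 0.70 and -0.20 to 0.64. Without Ti replicate 2 the first of these was 0.10. Mcm6 had 342, 328 and 306 CPM in naive, 287, 246 and 319 in Ti and 333, 329 and 341 in Ti+I-OG. All its Ti+I-OG libraries lay above all Ti libraries (log2 fold change 0.24, edgeR adjusted p = 0.667). Mcm3 and Mcm5 had the lowest of the Mcm fold changes in Ti, -0.21 and -0.24 on the log2 scale. In Ti+I-OG against naive, Mcm3, Mcm4, Mcm5, Mcm6 and Mcm7 had 0.02, 0.05, -0.03, 0.04 and 0.15, all below Mcm2. The loaders Cdt1 and Cdc6 both had 0.33 in Ti+I-OG against Ti, without passing.

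Gins1, a subunit of the helicase activator GINS, was the replication gene with the smallest unadjusted p against naive tibia. It had 27.9, 26.7 and 18.7 CPM in naive, 25.4, 25.6 and 28.5 in Ti and 35.9, 34.8 and 28.6 in Ti+I-OG. The Ti+I-OG libraries lay above all others, by a narrow margin at replicate 3 (log2 fold change 0.44 against naive, edgeR adjusted p = 0.113). Gins2 had 58.7, 58.2 and 56.1 CPM in naive, 51.2, 47.5 and 65.8 in Ti, and 63.7, 73.0 and 71.2 in Ti+I-OG. Here the Ti+I-OG libraries lay above the naive ones but overlapped with Ti.

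Pcna and the nucleotide enzymes completed the replication list. Pcna had 417, 451 and 308 CPM in naive, 467, 402 and 448 in Ti and 512, 543 and 494 in Ti+I-OG. All 3 Ti+I-OG libraries lay above the other 6 (log2 fold change 0.40 against naive, 95% interval 0.05 to 0.75, edgeR adjusted p = 0.122). The low naive replicate 3 enters this value, and it also sets the sign in Ti against naive, where Pcna had 0.16 with it and -0.005 without it. Tyms, thymidylate synthase, had 93.5, 98.8 and 78.5 CPM in naive, 82.6, 82.2 and 89.9 in Ti and 108, 114 and 98.8 in Ti+I-OG. The Ti+I-OG libraries of Tyms lay above those of Ti (log2 fold change 0.33, edgeR adjusted p = 0.628). The ribonucleotide reductase genes Rrm1 and Rrm2 had 0.01 and 0.18 against naive.

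The kinases and cyclins of G2 and mitosis gave mixed values, none past the test. Cdk1, the kinase that starts mitosis, had 200, 180 and 154 CPM in naive, 153, 142 and 181 in Ti and 217, 223 and 183 in Ti+I-OG. Its Ti+I-OG libraries lay above all Ti libraries (log2 fold change 0.39, edgeR adjusted p = 0.628) and overlapped with naive. Ccnb1, cyclin B1, the partner of Cdk1, had 178, 159 and 164 CPM in naive, 140, 124 and 160 in Ti and 174, 157 and 166 in Ti+I-OG. All 3 groups overlapped for Ccnb1, with log2 fold changes of -0.24, 0.22 and -0.02. Ccnb2 had 0.22 against naive and Ccna2, cyclin A2, 0.03. The mitotic kinases Aurka, Aurkb and Plk1 had -0.30, -0.35 and -0.41 in Ti against naive, with intervals that all held 0. The checkpoint kinases Bub1 and Bub1b had -0.21 and -0.40 there, and Bub1b reached an unadjusted p of 0.0351 (edgeR adjusted p = 0.154).

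The markers of proliferation and chromosome structure leaned downward in both treated groups. Mki67 had 915, 1029 and 1455 CPM in naive, 1006, 735 and 951 in Ti and 871, 790 and 984 in Ti+I-OG. Apart from the high naive replicate 3, the libraries of the 3 groups overlapped (log2 fold change -0.34 in Ti and -0.36 in Ti+I-OG against naive, edgeR adjusted p = 0.298 and 0.241). Top2a had 457, 439 and 574 CPM in naive, 427, 266 and 438 in Ti and 352, 338 and 429 in Ti+I-OG. Every treated library of Top2a lay below every naive one, in Ti replicate 3 by a narrow margin (log2 fold changes -0.38 and -0.39, edgeR adjusted p = 0.248 and 0.211).

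The spindle motors and the kinetochore genes Cenpe and Cenpf had negative fold changes against naive in both treated groups, none past the test. Kif11, the motor that separates spindle poles, had 262, 239 and 284 CPM in naive, 234, 193 and 223 in Ti and 233, 202 and 222 in Ti+I-OG, with every treated library below every naive one. Its log2 fold changes against naive were -0.27 and -0.26 (edgeR adjusted p = 0.210 and 0.212). Kif20a and Kif23, motors of cytokinesis, had -0.44 and -0.39 in Ti (edgeR adjusted p = 0.139 and 0.162). Tpx2, a spindle assembly factor, had -0.34 in Ti and -0.29 in Ti+I-OG against naive. Cenpe, a kinetochore motor, had 90.9, 69.1 and 113 CPM in naive, 72.8, 49.2 and 69.0 in Ti and 61.2, 58.9 and 78.8 in Ti+I-OG. Naive replicate 2 of Cenpe lay within the range of the treated libraries (log2 fold change -0.51 in Ti, edgeR adjusted p = 0.135). Cenpf had -0.26 in Ti and -0.17 in Ti+I-OG against naive.

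Cenpa, the histone H3 variant that marks centromeres, went the other way. It had 129, 113 and 92.5 CPM in naive, 111, 107 and 124 in Ti and 183, 159 and 136 in Ti+I-OG. All Ti+I-OG libraries lay above the other 6, while naive and Ti overlapped (log2 fold change 0.48 against Ti, 95% interval 0.14 to 0.82, edgeR adjusted p = 0.628). With the block, the Cenpa difference from naive had an adjusted p of 0.0199 in edgeR. Birc5, survivin, a subunit of the chromosomal passenger complex, had 124, 126 and 103 CPM in naive, 107, 108 and 138 in Ti and 148, 159 and 139 in Ti+I-OG. Its Ti+I-OG libraries were again above the other 6 (log2 fold change 0.34 against naive, edgeR adjusted p = 0.139). With an offset for transcript length, an alternative chosen after seeing the data, the sign of this value turned (-0.09), as it did for Tyms and Cdk1. Ube2c, the ubiquitin-conjugating enzyme that works with the anaphase-promoting complex, had 0.25 against naive and 0.32 against Ti, and Cdc20 had -0.10 and 0.27.

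Replication and mitosis genes were set against each other within each library, where depth cancels. The mean log2 level of the 14 replication genes minus that of the 21 mitosis genes was -0.16, -0.03 and -0.26 in the naive libraries, -0.002, 0.03 and 0.07 in Ti, and 0.02, 0.17 and 0.16 in Ti+I-OG. All naive libraries lay below all treated ones, and Ti and Ti+I-OG overlapped. The group means were -0.15 ± 0.12, 0.03 ± 0.04 and 0.12 ± 0.08 (SD, n = 3). In Ti+I-OG the replication mean was 0.15 ± 0.10 against -0.03 ± 0.02 in naive, and the mitosis mean 0.03 ± 0.06 against 0.12 ± 0.10. In Ti both list means were low and variable, -0.12 ± 0.28 and -0.15 ± 0.26. Genes outside the 40 gave the same order: 44 other replication genes minus 50 other mitosis genes gave -0.11 ± 0.09, 0.02 ± 0.06 and 0.09 ± 0.02, and here 1 Ti library, at -0.04, lay below naive replicate 2 at -0.01. No p is given for these scores over chosen genes.

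**Figure D4:**
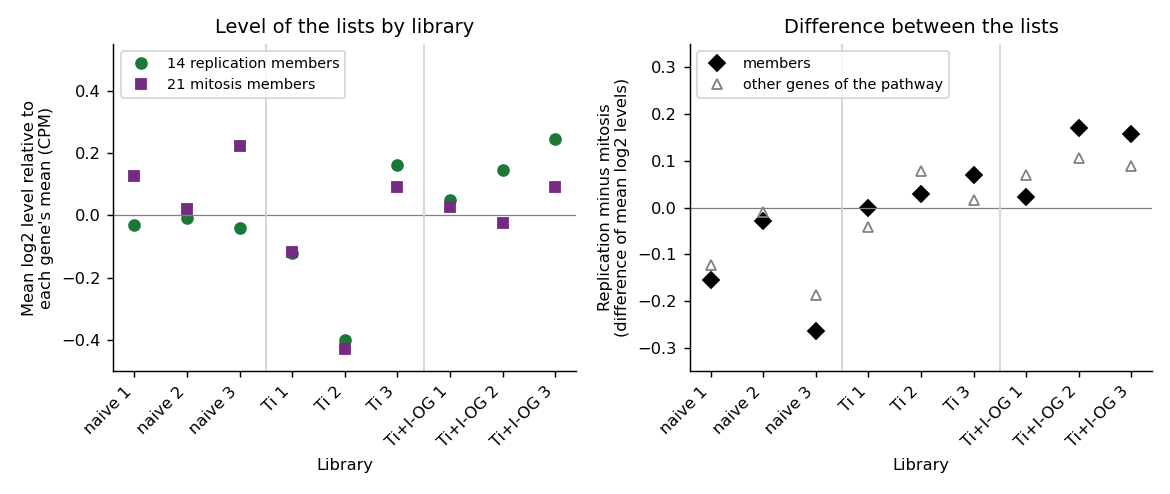
Left: mean log2 level of the 14 replication (circles) and 21 mitosis members (squares) in each library, each gene relative to its mean over 9 libraries. Right: replication minus mitosis for members (diamonds) and for 44 and 50 other genes of the same processes (triangles); for the members the naive libraries lie from -0.26 to -0.03 and the treated ones from -0.002 to 0.17.

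The difference between the median fold changes of the 2 lists was 0.23 in Ti against naive, 0.09 in Ti+I-OG against Ti and 0.39 in Ti+I-OG against naive. It was positive in all 18 alternative fits of each comparison, from 0.12 to 0.28, from 0.06 to 0.14 and from 0.23 to 0.47. The sides of 0 on which the lists lay were less stable: on the authors' FPKM values, where the median of all genes was -0.16 in place of 0.03 in Ti+I-OG against naive, the replication median was -0.004.

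Fold changes also moved with transcript length, although the median lengths of the lists were close, 2.84 kb for replication and 2.96 kb for mitosis. Lengths estimated from the ratio of counts to FPKM ran from 0.968 kb (Ube2c) to 11.1 kb (Cenpf). Across the 40 members the log2 fold change and length had a Spearman rho of -0.49 in Ti against naive, -0.63 in Ti+I-OG against Ti and -0.66 in Ti+I-OG against naive. Within the 21 mitosis genes it was -0.55, -0.86 and -0.82, and within the 14 replication genes -0.24, -0.10 and -0.36. Over 13940 genes tested with a length it was -0.25, -0.33 and -0.41. The members share the same libraries, so these values are descriptive. Mitosis genes that leaned upward in Ti+I-OG were short (Cenpa at 1.20 kb, Birc5 at 0.972 kb, Cdk1 at 1.29 kb), and those that leaned downward were longer (Kif11 at 4.82 kb, Cenpe at 7.91 kb). Among genes of 2 to 4 kb the 11 replication genes had a median of 0.15 and the 8 mitosis genes -0.25 in Ti+I-OG against naive. Under 2 kb both lists lay above 0 in that comparison, with medians of 0.40 over 3 replication genes and 0.22 over 8 mitosis genes. The 5 mitosis genes of 4 kb or more had -0.36, and no replication gene was that long. With each library's dependence on length removed by that offset, the medians were 0.05 and -0.18, over an all-gene median shifted to -0.06.

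**Figure D5:**
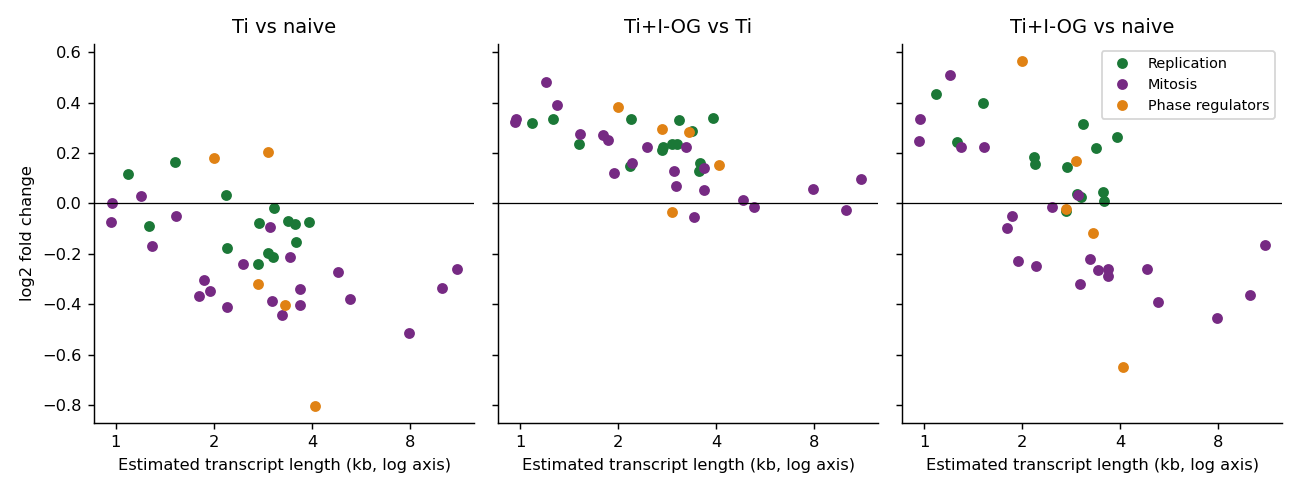
Log2 fold change of each of the 40 members against its estimated transcript length (log axis, kb) in the 3 comparisons; green is replication, purple mitosis, orange phase regulators. Longer genes tend to lie lower, with the strongest rank correlation among the mitosis genes in the middle and right panels (Spearman rho -0.86 and -0.82, n = 21).

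The other genes of the pathway, listed by function, gave few calls. Of 44 other replication genes 0 passed in any of the 3 comparisons by edgeR. At an unadjusted p under 0.05, 5 were lower in Ti, against 12.4% of all genes. By the same measure 11 were higher in Ti+I-OG than in Ti, against 4.19% of all genes. In Ti+I-OG against naive 9 were higher and 4 lower, against 15.6% and 14.2% of all genes. Of 50 other mitosis genes, Kif14, a motor of cytokinesis, fell in Ti from 42.5, 41.8 and 57.8 CPM to 28.2, 25.5 and 34.8 (log2 fold change -0.68, edgeR adjusted p = 0.0388) and was lower in Ti+I-OG than in naive (-0.62, adjusted p = 0.0475). Pttg1, securin, which restrains the separation of sister chromatids, was higher in Ti+I-OG than in naive (0.71, adjusted p = 0.0494 in edgeR). It passed in 4 of 18 alternative fits. Kif14 missed the threshold in 8 of 18 alternative fits of each comparison, and in Ti without Ti replicate 2 its adjusted p was 0.157 in edgeR.

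Among 21 inhibitors of cyclin-dependent kinases and G1 genes, 2 were higher and 1 lower in Ti. Cdkn1c, the kinase inhibitor p57, had 4.37, 4.67 and 5.03 CPM in naive, 14.0, 19.0 and 11.9 in Ti and 13.2, 20.7 and 13.0 in Ti+I-OG. It rose in Ti (log2 fold change 1.67, edgeR adjusted p = 0.00497) and was higher in Ti+I-OG than in naive (1.73, adjusted p = 0.00488), and it passed in all 18 alternative fits of both comparisons. Ccnd1, cyclin D1, rose in Ti (0.80, edgeR adjusted p = 0.0493) but passed in 5 of 18 alternative fits, and without Ti replicate 2 its adjusted p was 0.205 in edgeR. Cdk6, the G1 kinase that partners D-type cyclins, fell from 109, 98.6 and 186 CPM in naive to 74.5, 52.1 and 74.7 in Ti and was 68.6, 58.0 and 73.4 in Ti+I-OG (-0.97 in both comparisons, edgeR adjusted p = 0.0342 and 0.0330). It missed the threshold in 7 and 6 of 18 alternative fits, and in Ti without Ti replicate 2 its adjusted p was 0.136 in edgeR. Rbl1, the pocket protein p107, was lower in Ti+I-OG than in naive (-0.48, adjusted p = 0.0482 in edgeR) and missed the threshold in 8 of 18.

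Of 18 other E2F and DREAM genes, 2 were lower in Ti+I-OG than in naive, the repressor E2f7 (-0.88, edgeR adjusted p = 0.0497) and Lin54, the DREAM subunit that binds the CHR (-0.50, adjusted p = 0.0497), and 0 passed in Ti. E2f7 missed the threshold in 8 and Lin54 in 9 of 18 alternative fits. Of 22 p53 target and DNA damage genes, Phlda3, a p53 target, was higher in Ti (1.23, edgeR adjusted p = 0.0410) and in Ti+I-OG (1.36, adjusted p = 0.0310) than in naive. It missed the threshold in 11 of 18 alternative fits in Ti and 6 of 18 in Ti+I-OG; without Ti replicate 2 the value in Ti was 0.82 (edgeR adjusted p = 0.189). Atm, the kinase that signals DNA breaks, was lower in both (-0.85 and -0.98, edgeR adjusted p = 0.0167 and 0.0123). It missed the threshold in 4 and 1 of 18, with an adjusted p of 0.0686 in edgeR in Ti without Ti replicate 2. In Ti+I-OG against Ti none of these 5 lists had a gene that passed edgeR's test. At an unadjusted p under 0.05, 11 other replication genes, 2 other mitosis genes and 1 gene of each of the remaining lists were higher. By that measure 0 were lower, and all genes gave 4.19% higher and 3.65% lower.

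Markers of cell types also differed between libraries and groups, and the lists differed in which library was lowest or highest. Of 8 neutrophil precursor genes, which mark dividing cells of the marrow, 3 fell in Ti and their summed level was 3058 to 6918 CPM in naive, 1595 to 3776 in Ti and 2551 to 2954 in Ti+I-OG. Ti replicate 2 was the lowest library for this list and naive replicate 3 the highest, the same libraries that were extreme for the mitosis genes. Of 10 erythroid precursor genes 1, Alas2, was higher in Ti+I-OG than in naive (log2 fold change 1.01, edgeR adjusted p = 0.0453), and the sum was 3835 to 7030, 4921 to 5721 and 7445 to 7646 CPM. Of 8 tendon and fibrous tissue genes 7 rose in Ti, from 139 to 367 CPM in sum in naive to 954 to 2019, with 696 to 1349 in Ti+I-OG. Muscle genes summed to 855 to 2471, 1911 to 7094 and 2941 to 5178 CPM, and bone genes, of which 7 of 10 rose in Ti, to 1472 to 3567, 6381 to 9059 and 4106 to 6179. B-cell precursor genes summed to 123 to 336, 290 to 362 and 304 to 323 CPM with 0 of 10 past the test. Megakaryocyte genes, 0 of 8 past the test, summed to 1385 to 1567, 545 to 1558 and 1015 to 2030 CPM, the lowest again in Ti replicate 2. The erythroid, B-cell, bone and tendon lists were instead lowest in naive replicate 3, and the tendon and muscle lists were highest in Ti replicate 2. Of 8 macrophage and osteoclast genes 4 rose in Ti and 4 were higher in Ti+I-OG than in naive, with sums of 836 to 1013, 1918 to 2146 and 1560 to 2264 CPM. Of 8 mature neutrophil genes 1 was lower in Ti and 2 in Ti+I-OG than in naive (sums of 19916 to 29612, 20697 to 27826 and 15324 to 26485 CPM). Of 8 stem and progenitor genes 1 was higher in Ti (sums of 338 to 483, 273 to 400 and 332 to 353 CPM). The list leaned the other way, with 5 of 8 log2 fold changes in Ti negative and a median of -0.42. Of 7 T and NK cell genes 0 passed (sums of 109 to 123, 74.8 to 98.4 and 80.8 to 91.3 CPM). No marker of these lists was at 0 in any library, and the libraries labelled tibia thus held markers of marrow, bone, muscle and tendon in every group. The part of cell composition in the members' differences was not tested.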

How the data were processed

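Polyadenylated RNA from 9 mouse tibia samples was read on an Illumina sequencer, as the labels' protocols state. Per the submitters' processing notes the tools included StringTie 1.3.1 and RSEM, with fastp, edgeR and DESeq2 also listed; the aligner, genome build and annotation were not given in the sources used here. The deposited table gives for each gene and library an estimated count, made by the authors and whole in the file, and an FPKM value, scaled by the authors to length and depth. Of 22183 genes, 14211 passed edgeR's filterByExpr and 7972 were left out.

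Counts were scaled by trimmed mean of M values and fitted with edgeR 4.0.16 (quasi-likelihood, 1 fit of the 3 groups, 6 residual degrees of freedom, R 4.3.3), with p-values adjusted over all genes tested and a threshold of 0.05. CPM are scaled by the same factors. List levels are means of log2(CPM + 0.5). Alternatives were other size factors, globin genes left out, DESeq2 1.42.0, no filter, limma 3.58.1 on log2(FPKM + 1) or log2(FPKM + 0.1) for genes at or over 1 FPKM, the 2 groups alone, the replicate number as a block, each library left out, and, chosen after seeing the data, an offset for transcript length (loess, span 0.3). Same-numbered libraries deviated together between Ti+I-OG and Ti (correlations 0.12, 0.26 and 0.27) and between Ti+I-OG and naive (0.25, 0.15 and 0.33). A pairing by number is possible, but differently numbered libraries were not compared, so these values cannot decide it. No label states a shared animal or day. The main fit used no pairing, and the block is an alternative only.

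Members were taken by symbol. The members and gene lists were chosen with earlier results of these data known, so no count over them is independent support. All members are accounted for. Those given with their values were the members past the threshold, the 5 replication and 5 mitosis genes with the smallest p in each comparison, and Mki67, Top2a, Foxm1, Pcna, Mcm2, Cdk1 and Ccnb1; from each other list up to 4 genes past the threshold with the smallest p. E2f1, Mybl2, Ccne1, Kif11 and the genes outside this rule were added after their values were seen. Exon overlaps came from GENCODE release M21, in which 22128 of the table's identifiers were found, and promoters from RefSeq GRCm38.p6. Only the main edgeR fit was tested on simulated counts, in Ti against naive. Figures were drawn with matplotlib 3.10.9.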

Additional observations from a re-analysis of the deposited data

How the results depend on the processing

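Beside 914, 6 and 1174 genes called in Ti against naive, Ti+I-OG against Ti and Ti+I-OG against naive, DESeq2 called 1817, 14 and 2395. On log2(FPKM + 1) limma called 547 and 2066 genes in the 2 comparisons with naive, and on log2(FPKM + 0.1) 524 and 2031; fitting only the groups compared gave 357 and 770, and the length offset 422 in Ti+I-OG against naive. With the replicate block 2968 and 3450 genes were called in the comparisons with naive. In Ti against naive same-numbered libraries had correlations of -0.009, 0.39 and 0.29, which without differently numbered ones cannot decide on a pairing either. A pairing of Ti+I-OG by number with both other groups would also pair Ti with naive, and no label settles this. In that comparison the block gave 7 members lower (Bub1b, Kif20a, Kif23, Cdc20, Cenpe, Foxm1 and Mybl2), where it called 10.3% of all genes lower. In Ti+I-OG against naive the block gave 2 members higher and 3 lower, where it called 12.1% of all genes higher and 12.2% lower. Over the 3 groups jointly the block gave 6 members. No share of all genes is given for that joint test, so the 6 are not read as a result about the members. The block changed no call of a member in Ti+I-OG against Ti.

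Leaving out 1 library at a time gave 100 to 1999, 0 to 6 and 59 to 2119 genes called in the 3 comparisons. Members called lower in Ti ranged from 0 to 5, where the same fits called 0.125% to 5.72% of all genes lower. In Ti+I-OG against naive, members called higher and lower each ranged from 0 to 1. The same fits called 0.257% to 7.07% of all genes higher and 0.153% to 7.66% lower there. Members of the joint test ranged from 0 to 3, and no share of all genes is given for it. The replication median in Ti against naive ranged from -0.258 to 0.0411, and the mitosis median in Ti+I-OG against Ti from -0.00785 to 0.324. A group left with 2 libraries shares the estimate of spread of the others.

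Members called lower in Ti were 0 when the 2 groups were fitted alone. In Ti+I-OG against naive DESeq2 called 2 members higher and 1 lower, where it called 7.76% of all genes higher and 8.98% lower. No filter gave 1 member lower, against 4.43% of all genes. Both FPKM fits gave 2 lower (Kif11 and Foxm1), against 13.9% of all genes with a pseudocount of 1 and 13.7% with 0.1. Their replication medians were -0.00409 with a pseudocount of 1 and -0.00414 with 0.1. The FPKM fits moved the median of all genes to between -0.09 and -0.19. The joint test called 1 member (Foxm1) with other size factors, without globin genes, without the filter and in both FPKM fits, and 2 with DESeq2. No share of all genes is given for the joint tests of the alternative fits. Their counts are therefore not read as a result about the members.

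Of 1116 values of single genes under an alternative, 968 kept direction and side of the threshold, 110 lost the call, 16 gained one and 22 changed sign. In Ti against naive Rrm1 had 0.0556 and 0.0558 in the FPKM fits and from -0.282 to 0.0123 with a library left out, Mcm2 from -0.312 to 0.0982, and Pcna from -0.00464 to 0.274. In Ti+I-OG against Ti the length offset gave Mki67 0.13 and Top2a 0.10, the block gave Top2a 0.00558, and leaving out a library gave Mki67 from -0.150 to 0.0636 and Top2a from -0.212 to 0.107. In Ti+I-OG against naive the length offset gave Tyms -0.0853, Birc5 -0.0919 and Cdk1 -0.10, Cdk1 had -0.0142 in both FPKM fits, and Ccnb1 had from -0.0569 to 0.0312 with a library left out. The cause of these shifts was not tested.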
